A study of Homo sapiens with 4 samples.

Results

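Transcript levels of 60 genes that build or run the mitotic apparatus were compared between PC-3 and PC-3-BM, a pair of human prostate cancer cell lines measured on 4 Affymetrix Human Gene ST arrays, 2 per line. The genes encode condensin subunits, mitotic kinases, kinetochore and spindle checkpoint proteins, spindle motors, regulators of anaphase, cytokinesis factors and the transcription factors FOXM1 and MYBL2. Each was represented by its brightest probe set among those that the platform annotation gives exactly 1 gene symbol. Such a probe set was found for 59 of the 60 genes, out of 18417 genes with 1 on the array. The exception was CENPA, the histone H3 variant of centromeres, whose only probe set is shared with SLC35F6.

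PC-3 comes from a prostate cancer that had spread to bone and is labelled here as the parental line of poor metastatic potential. PC-3-BM is labelled as highly metastatic. By the study's methods it was taken from bone lesions of nude mice over repeated rounds of injection into the heart and expanded after sorting for green fluorescent protein, so it is 1 selected subline, and both lines carried a luciferase and a fluorescent reporter. The labels place the growth of the cells in immunocompromised mice, whereas the methods describe culture, and neither says whether the arrays of a line came from separate cultures. The p-values thus rest on the spread of the arrays within a line alone, and that spread may be purely technical. The keratins KRT8 and KRT18 were among the bright probe sets of both lines, while probe sets of the leukocyte gene PTPRC (3.70 to 4.05 log2 units) and of the lysozyme gene LYZ (3.84 to 4.09) were far below the array medians of 6.66 to 6.72. Other markers differed from these. The epithelial genes CDH1 (4.95 to 5.10) and, in PC-3-BM, EPCAM (5.56 and 5.64) were below the medians. CD14 measured 6.28 to 6.40, and the endothelial gene PECAM1 was above the medians in PC-3-BM (6.80 and 6.76). Summed linear signal over 8 stromal and bone cell markers was 908.3 and 925.4 in PC-3 and 1403 and 1408 in PC-3-BM. Of the 8 markers, 4 rose (CTSK, RUNX2, COL1A1 and LUM), beside 14.8% of all genes. Here and throughout, "rose" and "fell" are used of an adjusted p below 0.05 in limma, for PC-3-BM against PC-3. Over 8 blood and endothelial markers the summed signal was 353.5 to 359.8 in PC-3 and 366.6 to 368.4 in PC-3-BM, and PECAM1 rose. The epithelial genes KRT8, EPCAM and KRT18 fell. The part of any of these in the mitotic differences was not tested.

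Mitosis begins when condensin compacts the chromosomes and the kinases of the Aurora, Polo and NEK families drive separation of the centrosomes. Inner kinetochore proteins sit on centromeric chromatin, outer kinetochore proteins grip microtubules, and the spindle checkpoint holds the anaphase-promoting complex in check until every chromosome is attached. Its release frees separase to cut cohesin, after which the central spindle and the contractile ring divide the cell. Most of these genes are transcribed late in the cell cycle. The DREAM complex represses them in quiescence and early in the cycle, and the MuvB core of that complex later joins MYBL2 and FOXM1 to activate them through a promoter element called the cell cycle genes homology region (CHR). Their transcripts are widely used as a readout of proliferation in tumours. In bulk RNA, a smaller share of dividing cells cannot be told apart from less RNA per dividing cell.

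Promoter sequences of members are shown because many mitotic genes are known to share this element. RefSeq promoters of the build GRCh38.p14, each 300 bases long with 250 before the transcription start, were listed for 49 of the 60 genes. For 8 genes with several listed starts the first was used. The CHR was searched on both strands as the letters TTTGAA, as the variant TTCGAA or as the variant TTTAAA. The CCAAT box was searched on both strands by its own letters. Read from the opposite strand, the CHR letters appear as TTCAAA and the box as ATTGG. The stretches below are the 150 bases before the start, printed 5′ to 3′ in the direction of transcription, with CHR and CCAAT letters in capitals. ZWINT, KIF20A and CENPE fell in PC-3-BM, ASPM rose, PLK1 and the proliferation marker MKI67 were not called, and MYBL2 fell without holding either element.
ZWINT, chr10:56361260-56361409, minus strand: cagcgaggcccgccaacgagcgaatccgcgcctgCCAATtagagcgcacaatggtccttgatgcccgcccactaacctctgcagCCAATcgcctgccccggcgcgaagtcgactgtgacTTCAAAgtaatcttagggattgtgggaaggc
KIF20A, chr5:138178962-138179111, plus strand: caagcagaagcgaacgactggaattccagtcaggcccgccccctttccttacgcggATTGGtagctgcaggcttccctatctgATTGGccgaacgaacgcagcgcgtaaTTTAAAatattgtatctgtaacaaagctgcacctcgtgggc
CENPE, chr4:103198344-103198493, minus strand: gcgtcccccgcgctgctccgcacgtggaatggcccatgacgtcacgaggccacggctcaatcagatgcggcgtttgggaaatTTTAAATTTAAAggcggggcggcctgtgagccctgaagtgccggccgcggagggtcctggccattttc
ASPM, chr1:197146670-197146819, minus strand: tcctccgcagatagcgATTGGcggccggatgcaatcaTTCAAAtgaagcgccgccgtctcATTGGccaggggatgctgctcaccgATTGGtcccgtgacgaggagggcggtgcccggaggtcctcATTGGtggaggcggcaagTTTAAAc
PLK1, chr16:23678739-23678888, plus strand: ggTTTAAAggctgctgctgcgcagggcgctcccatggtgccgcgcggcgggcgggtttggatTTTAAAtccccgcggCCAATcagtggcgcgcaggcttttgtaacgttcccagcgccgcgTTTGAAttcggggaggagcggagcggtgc
MKI67, chr10:128126424-128126573, minus strand: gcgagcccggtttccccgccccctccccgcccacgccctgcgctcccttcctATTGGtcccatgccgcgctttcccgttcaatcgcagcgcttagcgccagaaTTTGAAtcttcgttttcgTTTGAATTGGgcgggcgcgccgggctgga
MYBL2, chr20:43666964-43667113, plus strand: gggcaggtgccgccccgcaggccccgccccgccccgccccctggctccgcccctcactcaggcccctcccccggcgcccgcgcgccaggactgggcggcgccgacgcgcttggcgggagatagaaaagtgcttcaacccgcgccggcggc

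CHR letters were present in 42 of the 49 promoters (85.7%), against 25.3% of all 27305 promoters and 20.8% of the 15843 promoters of protein-coding genes. CCAAT letters were present in 35 (71.4%), against 35.7% and 36.4%, and both elements in 31 (63.3%), against 9.95% and 8.46%. In MKI67 the CHR and CCAAT letters overlap in TTTGAATTGG. The CHR matches lay close to the start. Their median position was 29 bases before it, with 68.3% of 63 matches between 60 bases before and 50 after, whereas over protein-coding promoters the median was 140 bases before and the share 26.3%. The letters TTTGGCGC, TTTCCCGC, TTTCGCGC or TTTGCCGC of E2F sites were in 2 of the 49 promoters (4.08%), those of CENPA and NUSAP1, against 3.33% of all promoters and 4.44% of those of protein-coding genes. Only these exact letters were searched for E2F, so sites with other letters would be missed. Because the genes were assembled by role, the shares are a description of the list.

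**Figure D1:**
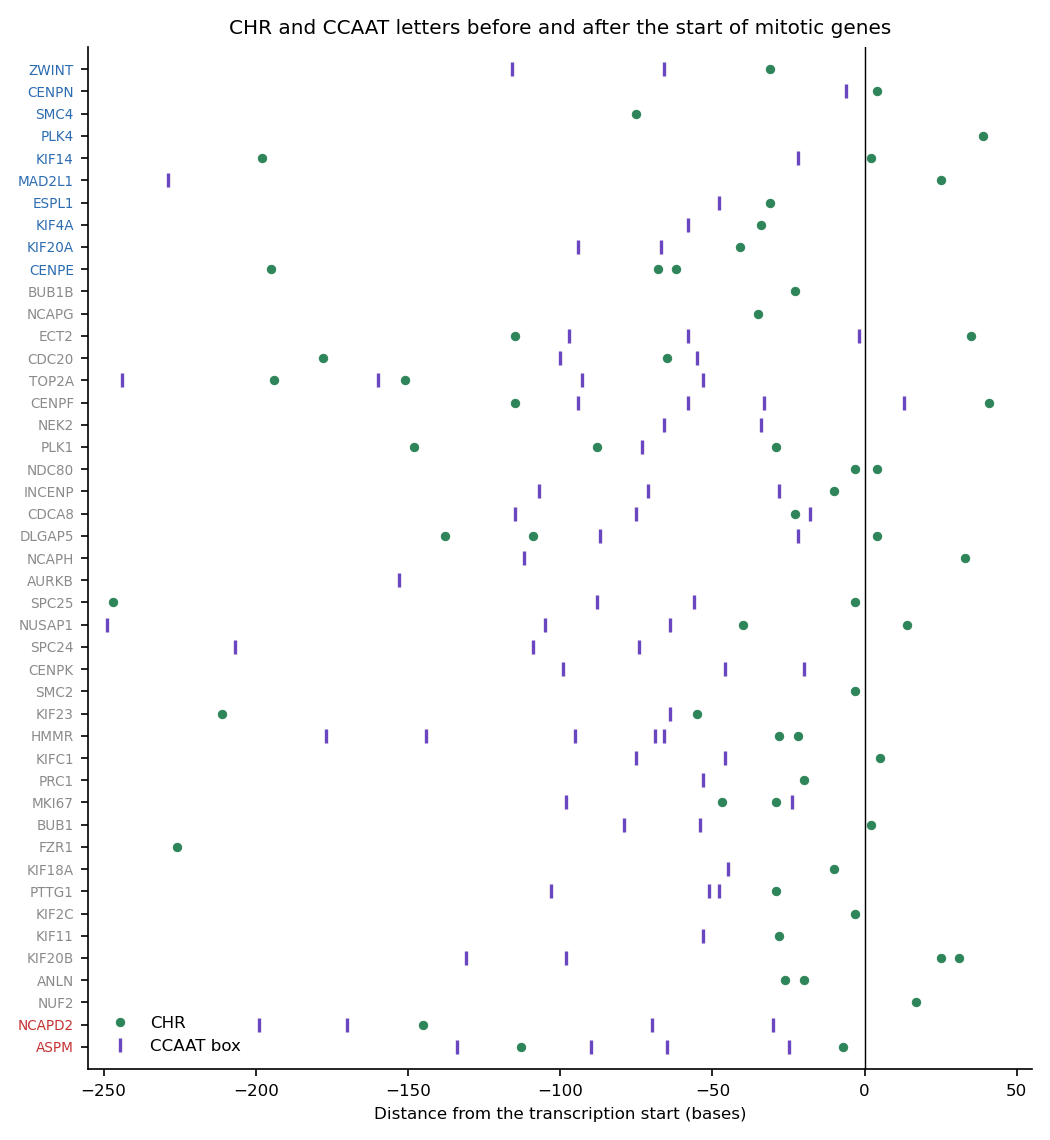
Distance in bases from the transcription start (x axis) of CHR letters (green points) and CCAAT letters (purple bars) in the promoters of measured mitotic genes with at least 1 match (rows, ordered by the difference between the lines, with names in blue for genes that fell in PC-3-BM, red for rose and grey for not called). Many CHR points lie just before the start, and CHR letters are in 10 of 12 promoters of genes that fell, 2 of 2 that rose and 29 of 34 not called.

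The differences of genes with and without these letters were close for the CHR and further apart for the CCAAT box. The 41 measured genes with CHR letters had a median difference of -0.11 log2 units (PC-3-BM minus PC-3), with 10 that fell and 2 that rose, and the 7 without them a median of -0.09, with 2 that fell. Those 7 were AURKB, CENPI, CENPK, CKAP2, MYBL2, NEK2 and SPC24. The 34 genes with CCAAT letters had a median of -0.10 and the 14 without of -0.22. The differences between these medians were not tested. Over all genes, 14.8% fell and 14.8% rose.

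More mitotic genes fell than rose in PC-3-BM, and most changes were small. At an adjusted p below 0.05, 17 of the 59 genes fell (28.8%) and 3 rose (5.08%), while 39 were not called. Over all 18417 genes, 14.8% fell and 14.8% rose. Mitotic genes are brighter than most, and 56 of them had a mean above 7 log2 units. Of these, 16 fell (28.6%) and 3 rose (5.36%), beside 21.2% and 21.8% of all genes of that brightness. The difference was below 0 in 40 of the 59 genes (67.8%), as in 57.2% of all genes. The median was -0.12 (interquartile range -0.40 to 0.11), against -0.04 over all genes. Both PC-3-BM arrays lay below both PC-3 arrays in 29 genes and above them in 15, while 39.8% of all genes lay below in this way and 30.9% above. Differences ran from -1.30 for MYBL2 to 0.49 for ASPM. Only MYBL2 and ZWINT changed by more than 1 log2 unit, and 6 genes (10.2%) changed by more than 1.5-fold, as did 12.8% of all genes. None of the 59 passed the stricter thresholds of the methods, which ask for a log2 difference beyond 2 in either direction at an adjusted p below 0.001 and which 0.0511% of all probe sets passed. At an unadjusted p below 0.05, 22 of the 59 were lower and 11 higher, beside 23.2% and 20.3% of all genes. Of the 20 calls, 3 (ZWINT, CENPN and MYBL2) held in each fit without 1 of the 4 arrays. The calls of BIRC5, KNTC1, CENPE, KIF4A, ESPL1, KIF20A, FOXM1, NCAPD2, BUB3 and ASPM were lost in each such fit. Such a fit leaves a line with 1 array, and calls were also lost among other mitotic genes outside the 59.

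**Figure D2:**
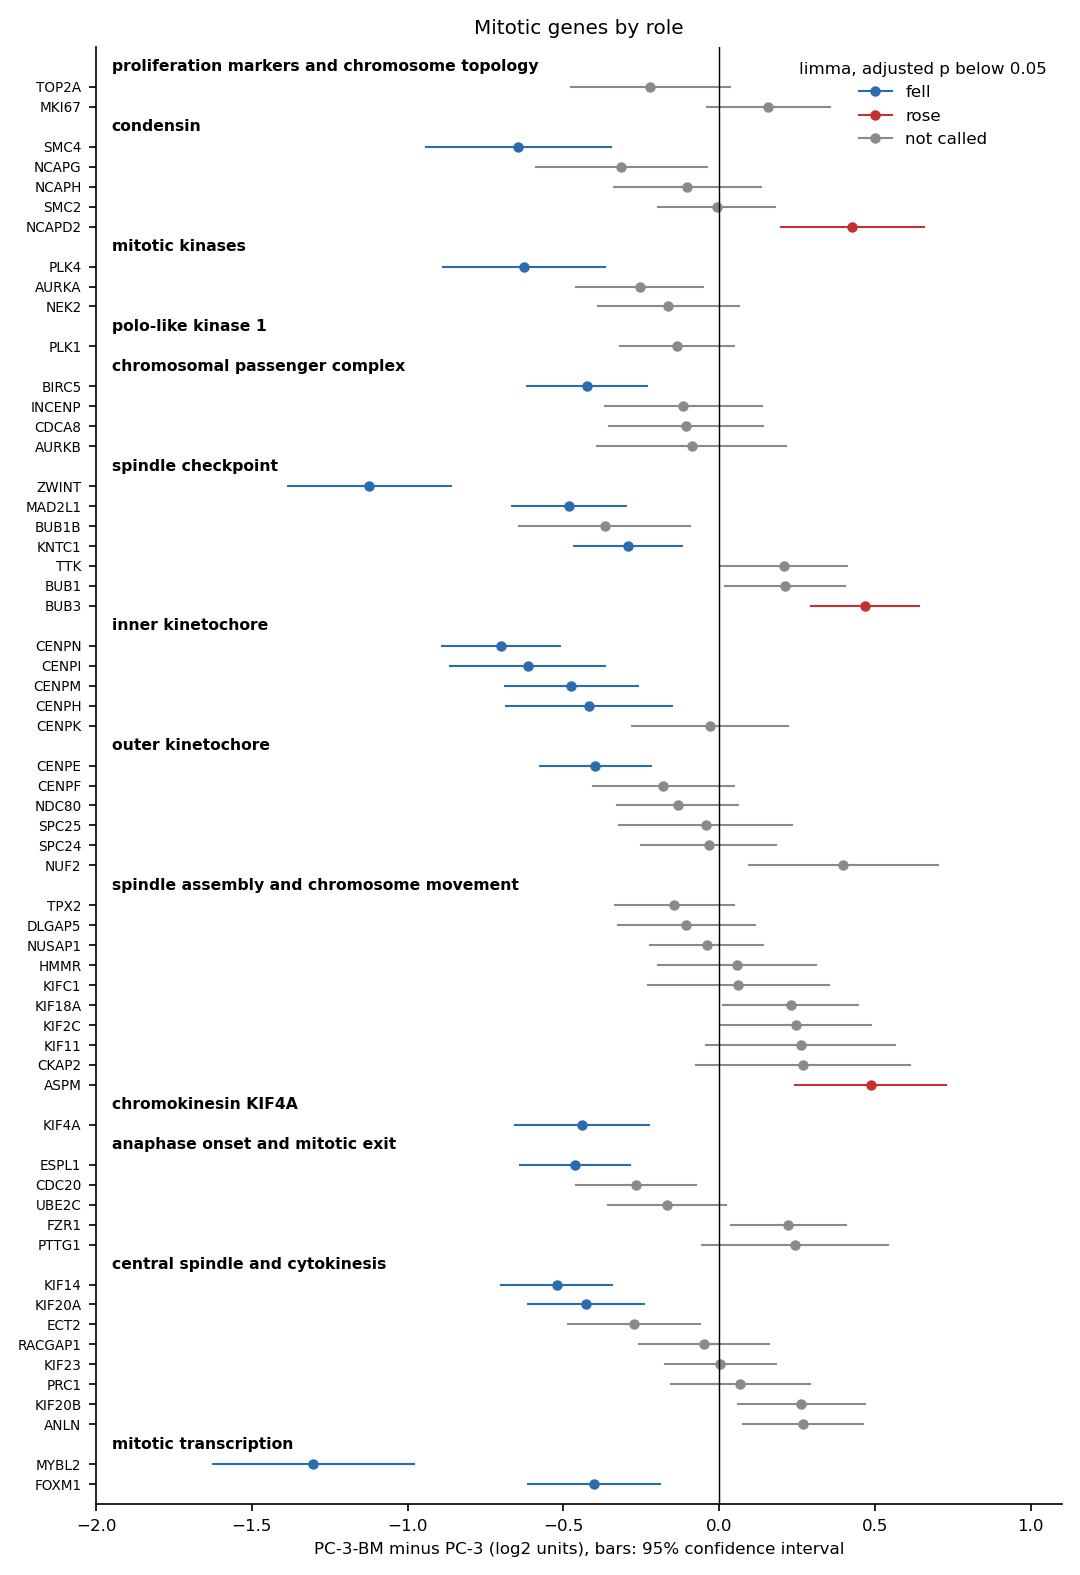
Difference between PC-3-BM and PC-3 (log2 units, x axis) for 59 mitotic genes grouped by role (rows), each point being the difference of 2 arrays against 2 with its 95% confidence interval from limma. Genes that fell (blue) run from -1.30 for MYBL2 to -0.29 for KNTC1, and BUB3, ASPM and NCAPD2 rose (red).

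Both transcription factors of the list fell. MYBL2, the B-Myb subunit that the MuvB core recruits to mitotic promoters (probe set 8062766), measured 9.61 and 9.82 on the PC-3 arrays and 8.29 and 8.54 on the PC-3-BM arrays. The arrays of the lines did not overlap, and the difference of -1.30 (SE 0.12, adjusted p = 0.00445) left PC-3-BM at 40.5% of the PC-3 level. FOXM1, which follows MYBL2 at these promoters, measured 8.79 and 8.94 against 8.48 and 8.45, a smaller difference of -0.40 (SE 0.08, adjusted p = 0.0275). The sequence of MYBL2 above holds neither CHR nor CCAAT letters, and FOXM1 had no promoter entry.

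**Figure D3:**
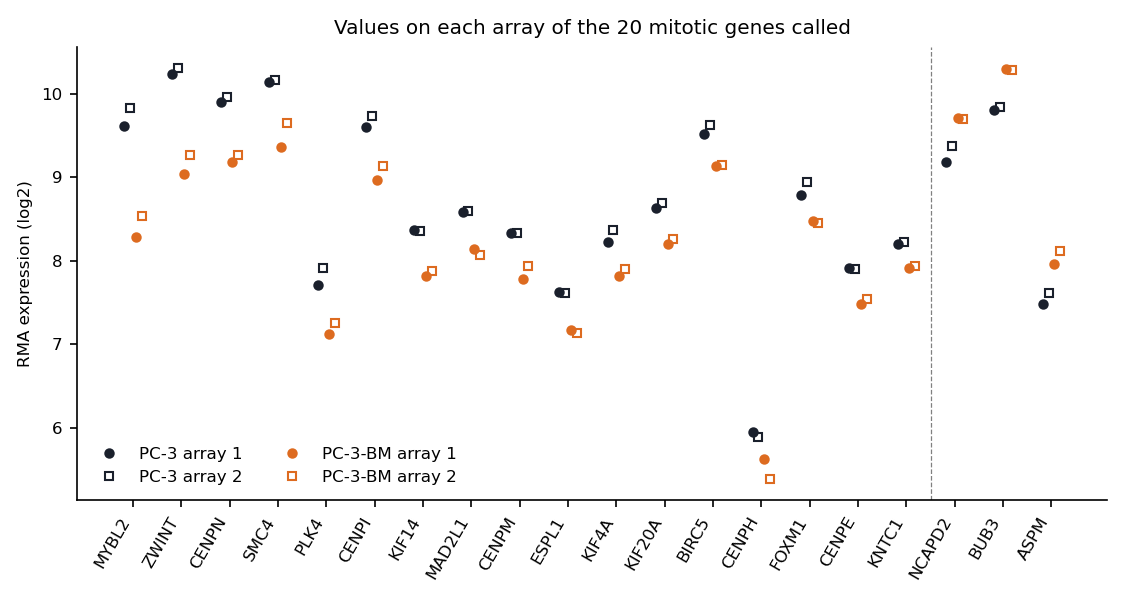
RMA log2 expression (y axis) on each of the 4 arrays for the 20 mitotic genes called at an adjusted p below 0.05 (x axis), with genes that fell left of the dashed line and genes that rose right of it; circles are array 1 and squares array 2 of PC-3 (black) and PC-3-BM (orange). In each gene the arrays of the lines do not overlap, which a call on these same arrays favours. Over all genes, 39.8% lay lower in this way and 30.9% higher. The widest gap is in MYBL2 and ZWINT.

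Among role groups of 3 or more genes, the inner kinetochore had the largest share that fell. Its genes encode the constitutive centromere-associated network that links centromeric nucleosomes to the outer kinetochore. Of 5 measured members 4 fell, beside 14.8% of all genes, and the group median was -0.47. CENPN, which reads the CENP-A nucleosome, measured 9.90 and 9.96 in PC-3 and 9.19 and 9.27 in PC-3-BM, a difference of -0.70 (SE 0.07, adjusted p = 0.00526). CENPI measured 9.60 and 9.74 against 8.97 and 9.14 (-0.62, SE 0.10, adjusted p = 0.0135). CENPM measured 8.33 and 8.34 against 7.79 and 7.94 (-0.47, SE 0.08, adjusted p = 0.018). All arrays of PC-3-BM lay below those of PC-3 in these genes, as in 39.8% of all genes. CENPH, which binds CENPK, gave a signal below the array medians, at 5.95 and 5.90 against 5.62 and 5.38 (-0.42, SE 0.10, adjusted p = 0.0452). Its partner CENPK was not called, at 8.10 and 8.29 against 8.10 and 8.22 (-0.03, 95% interval -0.28 to 0.22). The probe set that CENPA shares with SLC35F6 fell by 0.43 on the log2 scale (SE 0.07, adjusted p = 0.0149), from 9.01 and 8.95 to 8.56 and 8.53, and its signal cannot be given to either gene.

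Of 6 outer kinetochore members 1 fell, beside 14.8% of all genes, and the group median was -0.09. CENPE, the kinesin that carries chromosomes to the spindle equator, measured 7.92 and 7.90 in PC-3 and 7.48 and 7.54 in PC-3-BM (-0.40, SE 0.07, adjusted p = 0.018). None of the 4 subunits of the NDC80 complex, which binds microtubule ends, was called. NDC80 differed by -0.13 (95% interval -0.33 to 0.06), SPC24 by -0.03 (-0.25 to 0.18) and SPC25 by -0.04 (-0.32 to 0.23). NUF2 was higher on both PC-3-BM arrays, at 7.91 and 8.20 against 7.61 and 7.71, but its difference of 0.40 had an interval of 0.10 to 0.70 and was not called. CENPF, a large farnesylated kinetochore protein, differed by -0.18 and was not called.

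Spindle checkpoint genes changed in both directions, with 3 of 7 that fell and 1 that rose (42.9% and 14.3%). Over all genes, 14.8% fell and 14.8% rose. ZWINT, which docks the ROD-ZW10-Zwilch complex onto the kinetochore, measured 10.24 and 10.31 on the PC-3 arrays and 9.04 and 9.27 on the PC-3-BM arrays. Its difference of -1.12 (SE 0.10, adjusted p = 0.00403) put PC-3-BM at 45.9% of the PC-3 level. MAD2L1, the inhibitor of CDC20, measured 8.59 on both PC-3 arrays and 8.14 and 8.07 in PC-3-BM (-0.48, SE 0.07, adjusted p = 0.0116). KNTC1, which encodes ROD, measured 8.21 and 8.23 against 7.91 and 7.94 (-0.29, SE 0.07, adjusted p = 0.0381). This call was lost with the replicate number as a block (adjusted p = 0.0739), with arrays centred on their medians (0.0651) and without any 1 array (0.11 to 0.153). BUB3, the platform that brings BUB1 and BUBR1 to the kinetochore, rose from 9.81 and 9.84 to 10.30 and 10.28 (0.47, SE 0.07, adjusted p = 0.0112). Neither partner was called. BUB1B measured 9.65 and 9.84 against 9.29 and 9.46 (-0.37, 95% interval -0.64 to -0.09), and BUB1 measured 8.78 and 8.88 against 9.02 and 9.05 (0.21, 0.02 to 0.40). The checkpoint kinase TTK was not called either, at 7.53 and 7.61 against 7.72 and 7.83.

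Of 5 condensin subunits 1 fell and 1 rose (20% each), beside 14.8% of all genes each way. SMC4, 1 of the ATPase subunits, measured 10.14 and 10.17 in PC-3 and 9.36 and 9.65 in PC-3-BM (-0.65, SE 0.11, adjusted p = 0.0193). Its partner ATPase SMC2 measured 7.97 and 8.05 against 7.99 and 8.02, a difference of -0.01 with an interval of -0.20 to 0.18. NCAPD2, a regulatory subunit of condensin I, rose from 9.19 and 9.37 to 9.71 and 9.70 (0.43, SE 0.09, adjusted p = 0.0293). The other condensin I subunits were not called, with NCAPG at -0.32 and NCAPH at -0.10.

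Among the kinases, PLK4, the master regulator of centriole duplication, fell from 7.71 and 7.91 to 7.12 and 7.25 (-0.63, SE 0.10, adjusted p = 0.0146). AURKA, which matures centrosomes, measured 9.66 and 9.77 against 9.43 and 9.50, and did not pass the threshold at -0.26. NEK2, which unlinks centrosomes, differed by -0.16. PLK1, which acts from mitotic entry to cytokinesis, measured 10.64 and 10.68 against 10.49 and 10.55 (-0.14, 95% interval -0.32 to 0.05, adjusted p = 0.241). In the chromosomal passenger complex, BIRC5, which encodes survivin, fell from 9.52 and 9.62 to 9.14 and 9.15 (-0.42, SE 0.07, adjusted p = 0.0185). Another BIRC5 probe set gave -0.29 (adjusted p = 0.0417). The kinase AURKB and the scaffold genes INCENP and CDCA8 differed by -0.09 to -0.12, and their arrays overlapped between the lines.

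Of 10 genes of spindle assembly and chromosome movement, 1 rose and 0 fell by limma, while 14.8% of all genes rose. At an unadjusted p below 0.05 the counts were 3 higher and 0 lower, beside 20.3% and 23.2% of all genes. The median difference was 0.15, with a positive value in 7 of the 10 and a negative value in 3, and was not tested. Over all genes, 57.2% had a negative difference. ASPM, which focuses microtubule minus ends at the poles, measured 7.48 and 7.62 in PC-3 and 7.96 and 8.11 in PC-3-BM (0.49, SE 0.09, adjusted p = 0.0241). The motors KIF11, KIF18A and KIF2C and the microtubule protein CKAP2 were higher on both PC-3-BM arrays by 0.23 to 0.27 and were not called. KIFC1 was measured by a pair of probe sets that both gave 0.06. TPX2, the activator of AURKA on the spindle, differed by -0.14, and NUSAP1, DLGAP5 and HMMR had arrays that overlapped between the lines. KIF4A, a chromokinesin that acts on chromosome arms and again at the central spindle, fell from 8.23 and 8.37 to 7.82 and 7.90 (-0.44, SE 0.08, adjusted p = 0.0229). A probe set that it shares with its near copy KIF4B gave -0.24 (adjusted p = 0.0641), and transcripts of the pair could hybridise to either probe set.

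At anaphase onset, ESPL1, which encodes separase, fell from 7.62 and 7.61 to 7.18 and 7.13 (-0.46, SE 0.07, adjusted p = 0.0116). PTTG1, its inhibitor securin, measured 8.76 and 9.03 against 9.20 and 9.07 (0.24, 95% interval -0.06 to 0.54) and was not called. The activators of the anaphase-promoting complex had opposite signs, with CDC20 at -0.27 (-0.46 to -0.08) and FZR1 at 0.22 (0.04 to 0.41), and neither was called. UBE2C, the ubiquitin-conjugating enzyme of the complex, differed by -0.17. Of 8 central spindle and cytokinesis genes 2 fell, beside 14.8% of all genes. KIF14, the kinesin that brings citron kinase to the midbody, measured 8.37 and 8.36 against 7.81 and 7.87 (-0.52, SE 0.07, adjusted p = 0.00906). KIF20A measured 8.63 and 8.70 against 8.21 and 8.27 (-0.43, SE 0.07, adjusted p = 0.0169). PRC1, which bundles the central spindle, and the centralspindlin subunits KIF23 and RACGAP1 lay within 0.07 of 0, with intervals between -0.26 and 0.29. ECT2, the activator of RhoA, differed by -0.27, the ring scaffold ANLN by 0.27 and KIF20B by 0.26. None of these 3 was called.

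The classical proliferation markers did not pass the threshold, and their differences had opposite signs. MKI67, which encodes Ki-67, measured 8.56 and 8.65 in PC-3 and 8.72 and 8.80 in PC-3-BM, higher by 0.16 (95% interval -0.04 to 0.35, adjusted p = 0.211). TOP2A, the topoisomerase that untangles sister chromatids, measured 9.91 and 10.04 against 9.66 and 9.85, a difference of -0.22 (-0.48 to 0.03, adjusted p = 0.183).

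To compare early with late mitosis, 36 measured genes that act up to metaphase (condensin, centrosome and NEK kinases, checkpoint, kinetochore, spindle assembly) were set beside 13 that act from anaphase onset on. Among early genes, with a median difference of -0.10, 10 fell (27.8%) and 3 rose (8.33%), beside 14.8% of all genes each way. Among late genes 3 fell (23.1%) and 0 rose by limma, with a median of -0.05, and at an unadjusted p below 0.05 the counts were 5 lower and 3 higher of 13, beside 23.2% and 20.3% of all genes. The difference between these medians, -0.055, was close to its spread between arrays (SD 0.043), and moved to 0.0079 without PC-3-BM array 1 and to -0.011 without PC-3 array 1. The median level of early genes was 8.35 and 8.46 on the PC-3 arrays and 8.25 and 8.31 on the PC-3-BM arrays. That of late genes was 8.97 and 9.03 against 9.08 and 9.07, so the median level of late genes was higher in PC-3-BM while the median of their differences was below 0. Taken from these levels, early minus late was lower in PC-3-BM by a larger amount (-0.20, with an SD of 0.045 between arrays of a line). With 13 late genes, the late level of an array is the value of a single gene. That gene was KIF23 on PC-3 array 1, PRC1 on PC-3-BM array 1 and PTTG1 on the other arrays. The contrast of levels thus compares different genes, which the SD does not measure, and its size depends on which summary is used. Changes of more than 1.5-fold were found in 5 early genes (13.9%) and 0 late genes, beside 12.8% of all genes. The early share was thus near that of all genes. The 5 were ZWINT, CENPN, SMC4, PLK4 and CENPI. Of the 10 genes in neither class, which act throughout or control transcription, 4 fell and 9 had a negative difference, beside 14.8% and 57.2% of all genes.

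**Figure D4:**
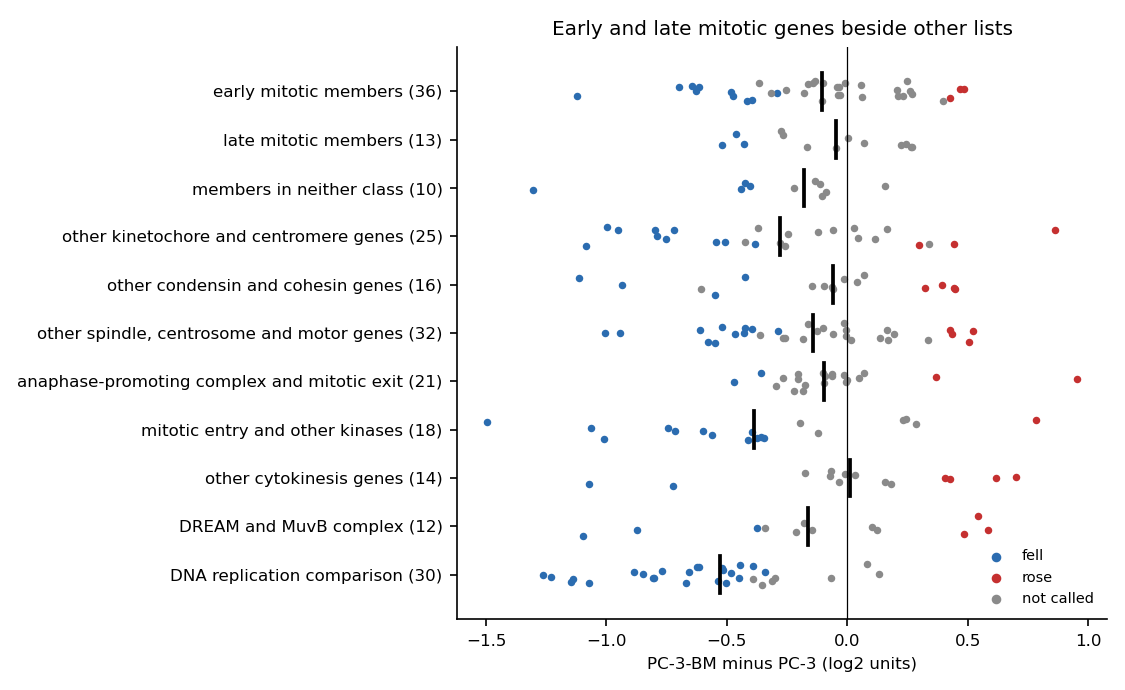
Difference between PC-3-BM and PC-3 (log2 units, x axis) for each gene (points, coloured by call) of the early, late and remaining mitotic genes and of 8 further lists (rows, with the number of measured genes), where black bars are medians. The early and late medians of -0.10 and -0.05 lie near each other, and the DNA replication list lies at -0.53.

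Another 7 lists held 143 mitotic genes outside the 60, of which 138 were measured. Of these, 44 fell (31.9%) and 21 rose (15.2%), beside 14.8% of all genes each way. The median was -0.14, against -0.04 over all genes. Mitotic entry genes leaned down the most, with 12 of 18 that fell, 1 that rose and a median of -0.39. CDC25A, the phosphatase that activates CDK complexes, measured 7.74 on both PC-3 arrays and 6.17 and 6.31 on the PC-3-BM arrays (-1.50, SE 0.08, adjusted p = 0.00163). CDK1, the mitotic kinase itself, fell by 0.75 on the log2 scale, whereas NEK7 rose by 0.78.

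Of 25 other kinetochore and centromere genes, with a median of -0.28, 10 fell and 3 rose, beside 14.8% of all genes each way. MIS18A, which licenses centromeres for new CENP-A, differed by -1.08 (SE 0.11) and ZWILCH, a partner of KNTC1, by -0.95 (SE 0.07). SKA1, which tracks microtubule ends, fell from 7.87 and 7.91 to 6.88 and 6.90. Other inner kinetochore genes were mixed, since CENPL, CENPO and CENPU fell while CENPC and CENPT rose. Condensin and cohesin genes were split, at 4 of 16 each way (25%). ESCO2 (-1.12) and CDCA5 (-0.93), which establish and protect cohesion, and the condensin II subunit NCAPD3 (-0.55) fell, while the cohesin gene SMC3, its regulators PDS5A and PDS5B, and the loader NIPBL rose by 0.32 to 0.45. Of 32 spindle, centrosome and motor genes 11 fell, led by KIF15 (-1.01), HAUS1 (-0.94) and STIL (-0.61), and 4 rose.

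Over all genes, 14.8% fell and 14.8% rose. Of 21 further genes of the anaphase-promoting complex and mitotic exit, 2 fell and 2 rose (9.52% each). The largest difference was that of CDC16, a core subunit, which rose from 8.22 and 8.26 to 9.28 and 9.11 (0.96, SE 0.09, adjusted p = 0.00404). Of 14 other cytokinesis genes 2 fell, led by CHMP4C (-1.07), and 4 rose, led by the myosin heavy chain MYH9 (0.70). Among 12 DREAM and MuvB genes 3 fell and 3 rose (25% each). LIN9, the MuvB subunit that joins MYBL2 to the complex, fell from 7.74 and 7.89 to 6.65 and 6.78 (-1.10, SE 0.09, adjusted p = 0.00355), and E2F5 fell by 0.87 on the log2 scale. LIN37 and RBL2, the latter encoding the pocket protein p130 of DREAM, rose by 0.54 and 0.58, and E2F4 rose by 0.48.

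DNA replication genes, taken as a comparison from an earlier phase of the cell cycle, had larger differences. Of 30 such genes 23 fell and 0 rose by limma, beside 14.8% of all genes each way. At an unadjusted p below 0.05 the counts were 27 lower and 0 higher, beside 23.2% and 20.3% of all genes. The median difference of the list was -0.53, with MCM10 at -1.26, MCM4 at -1.23 and the polymerase clamp PCNA at -1.15. The median level of the list was 8.75 and 8.78 on the PC-3 arrays and 8.22 and 8.28 on the PC-3-BM arrays, against 8.64, 8.70, 8.48 and 8.56 for the 59 mitotic genes in the same order. A difference between the lists was not tested.

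The arrays of a line were not interchangeable for these genes. Array 2 was above array 1 in 49 of the 59 genes in PC-3 and in 47 in PC-3-BM, by a median of 0.10 and 0.08 log2 units. In 39 genes (66.1%) it was above in both lines, as in 25.2% of all genes, and in 2 it was below in both. Same-numbered arrays of the lines share only that number in the labels. The offset is close in size to the median difference between the lines, -0.12, and reached 0.30 in PC-3 and 0.29 in PC-3-BM for single genes. Each fit without 1 of the 4 arrays leaves a line with 1 array. Fewer of the 59 genes were called in each, as was so for the other mitotic lists. The lost calls can thus not be read as particular to these genes or to an array. ZWINT, CENPN and MYBL2 were called in each of these fits. Among the 10 calls lost in each, the differences in these fits ran, for example, from 0.45 to 0.48 for BUB3, 0.41 to 0.56 for ASPM, -0.48 to -0.44 for ESPL1 and -0.48 to -0.33 for FOXM1.

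**Figure D5:**
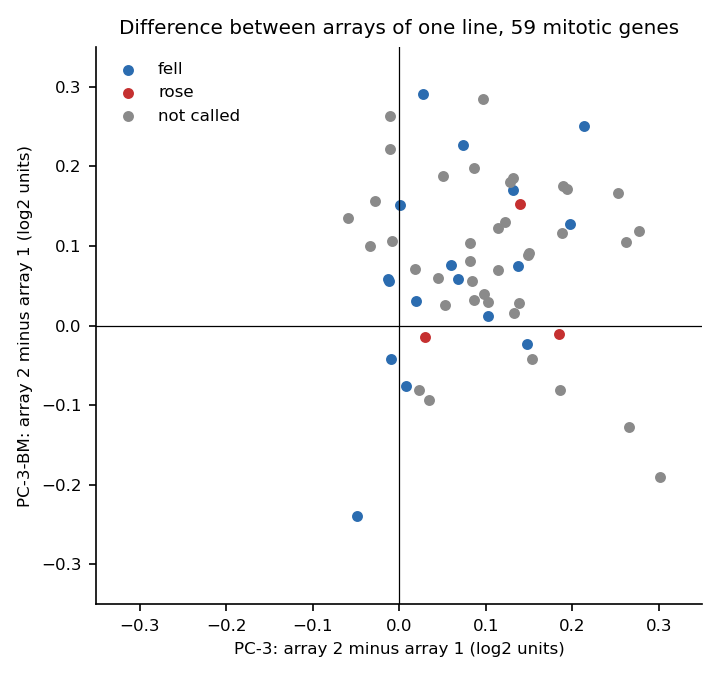
Array 2 minus array 1 (log2 units) in PC-3 (x axis) and in PC-3-BM (y axis) for each of 59 mitotic genes (points, coloured by their call between the lines). Most points, 39 of 59, lie in the upper right, where array 2 was above array 1 in both lines.

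To place the differences along the chromosomes, each gene was set beside the 10 measured genes on either side of it. No gene that fell had neighbours with a median past -0.2. The median of their neighbours ranged from -0.16 to 0.09 over the 17 genes, with a median of -0.04. For ZWINT on chromosome 10 it was -0.04 and for MYBL2 on chromosome 20 it was 0.07. The neighbours of the 3 genes that rose had medians of 0.07 (NCAPD2), 0.13 (BUB3) and 0.15 (ASPM), with the sign of the gene itself. The sign also matched in 12 of the 17 genes that fell and in 27 of the 39 not called. Over all genes, 57.2% had a difference below 0 and the median was -0.04, so a negative sign was the more common one. Among genes not called, 5 had neighbours shifted the same way by more than 0.2. The shares of all genes with a matching sign or with such a shift were not counted. On chromosome 10 the neighbours of KIF20B had a median of 0.33, with 10 of 20 that rose, beside 14.8% of all genes. Those of KIF11 had a median of 0.21. Around TTK on chromosome 6 the median was 0.24, and around NEK2 and CENPF on chromosome 1 it was -0.32 and -0.27. CENPK on chromosome 5, which differed by -0.03, lay among neighbours with a median of 0.31.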

How the data were processed

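Total RNA of both lines was labelled with biotin and hybridised to Affymetrix Human Gene ST arrays. The authors deposited log2 expression values from RMA (robust multichip average), a method of background correction, quantile normalisation and probe summary. Their processing notes list R 3.2 and limma 3.24. The 33297 probe sets were used as deposited, without a detection call. A shift of all transcripts in 1 line would be lost in this normalisation. Precision is limited by 2 arrays per line.

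PC-3-BM was compared with PC-3 in limma 3.58.1 (R 4.3.3) (lmFit on group means, then eBayes), p-values were adjusted over the whole table by Benjamini-Hochberg, and the procedure was tested on simulated data. An exact two-sided permutation test of 2 against 2 arrays cannot go below 0.333. SE and 95% intervals come from the fit. Of the probe sets, 19460 had 1 symbol, 1754 several and 12083 none, by the platform annotation. RefSeq tables (GRCh38.p14) gave gene order and promoters.

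The members and lists were chosen with earlier results of these data known. Named in full were up to 4 called members per role with the largest differences, or the 2 brightest, and up to 3 genes per further list. Other members are given by their differences. CDK1, NEK7, the CENP and cohesin genes and LIN37 and E2F4 were named after their values were seen. Alternatives covered centring, brightness filters, a mean-variance trend, probe set choice, a replicate block, a stricter threshold, the phase classes and leaving out each array.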

Additional observations from a re-analysis of the deposited data

How the results depend on the processing

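Leaving out 1 array at a time gave 3 to 8 mitotic genes that fell and 0 that rose, medians of -0.17 to -0.044, 2 to 6 early genes that fell and 0 that rose, 0 to 1 late genes that fell, an early minus late difference of -0.11 to 0.0079, and, in the other mitotic lists, 12 to 27 that fell and 4 to 10 that rose. At an adjusted p below 0.01, 4 mitotic genes fell (ZWINT, CENPN, KIF14 and MYBL2) and 0 rose. The count that rose was 5 with probe sets above a mean of 5 and with a mean-variance trend, and 7 with probe sets above 6 or with 1 symbol only. In each of these 4 fits 5 late genes fell. Late genes that rose numbered 1 above a mean of 5, with the trend and with arrays centred on their medians, and 3 above 6 or with 1 symbol only. With the genes that act in both phases counted as late, 5 late genes fell and the early minus late difference was 0.011. None of the 20 called mitotic genes changed sign in any of these settings, which adds no support to the calls. Their arrays did not overlap between the lines, so leaving out 1 array could not change a sign. Where a line was left with 1 array, that array was assumed to vary like those of the other line. Except for centring, the shares of all genes called in these settings are not given. A smaller or larger count can thus not be read as particular to the mitotic genes. Median centring moved the median of all values by 0.035 and gave 15 that fell and 4 that rose, while over all probe sets it turned 3863 that fell and 3854 that rose into 3254 and 4212. The cause of these shifts was not tested.

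Nothing in the labels makes the replicate numbers a pairing, and 2 numbers are too few to settle it from the values. Array differences correlated at -0.030 across the 59 genes, a measure that does not register the offset of array 2 shared by both lines. With the replicate block 17 fell and 3 rose, and 16 of the 17 that fell were the same genes, with KNTC1 lost and BUB1B gained. KNTC1 was also lost under median centring, as was CENPH, which was lost with the trend too.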
